A study of Homo sapiens with 12 samples.

Results

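The miR-106b-25 and miR-106a-363 clusters are the paralogs of the oncogenic miR-17-92 cluster, and 8 of their mature microRNAs (miRNAs) were followed here across human acute myeloid leukemia (AML) cells with and without MPC1. The members were chosen by name: hsa-miR-106b-5p, hsa-miR-106b-3p, hsa-miR-93-5p and hsa-miR-25-3p from miR-106b-25, and hsa-miR-106a-5p, hsa-miR-20b-5p, hsa-miR-18b-5p and hsa-miR-363-3p from miR-106a-363. They make up 8 of the 1204 miRNAs in the count table. The question was which cluster supplies the shared seed family in each line, and whether that supply moves when MPC1 is lost.

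Small RNA was sequenced from MV4-11 and Molm-14, which are AML cell lines that both carry an internal tandem duplication in the FLT3 receptor (FLT3-ITD). MPC1 encodes a subunit of the carrier that brings pyruvate into mitochondria. In each line it was deleted by CRISPR/Cas9 from a lentiviral vector with a GFP marker (MPC1 KO), and control cells carried a nontargeting Empty Vector (EV). The 4 groups, MV4-11 EV, MV4-11 MPC1 KO, Molm-14 EV and Molm-14 MPC1 KO, held 3 libraries each. Whether the knockout cells were clones or pools, and whether the 3 libraries came from separate cultures, was not said, so the p-values measure only the spread between these libraries. MPC1 mRNA is not measured in small RNA libraries, so the knockout itself could not be checked in these counts.

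A miRNA is cut from a hairpin in a longer primary transcript, and either arm of the hairpin (5p or 3p) can be kept as the mature strand. Bases 2 to 8 of the mature strand, the seed, pair with target mRNAs and set most of what the miRNA can repress. The 3 clusters arose by duplication, so miR-17-92, miR-106b-25 and miR-106a-363 carry miRNAs with the same seeds. The miR-17 seed family is known for repressing the cell cycle inhibitor CDKN1A, E2F factors and the pro-apoptotic gene BCL2L11, and miR-17-92 is a classical oncogene of blood cancers. miR-106b-25 lies inside MCM7, a DNA replication gene induced in cycling cells, whereas miR-106a-363 has its own transcript on the X chromosome.

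The mature sequences are shown because their seeds decide which members can stand in for each other. They were taken from RefSeq (GRCh38.p14), where all 8 members matched by name, and the capitals mark the seed. The seed AAAGUGC is shared by 4 members and by miR-17-5p and miR-20a-5p of miR-17-92.
miR-106b-5p: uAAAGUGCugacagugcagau
miR-93-5p: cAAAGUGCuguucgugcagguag
miR-106a-5p: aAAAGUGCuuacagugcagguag
miR-20b-5p: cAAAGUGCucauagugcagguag
miR-17-5p: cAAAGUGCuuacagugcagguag
miR-20a-5p: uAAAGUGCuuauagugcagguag
The seed AUUGCAC is carried by miR-25-3p and miR-363-3p, and by miR-92a-3p, miR-92b-3p and miR-32-5p.
miR-25-3p: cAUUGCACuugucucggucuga
miR-363-3p: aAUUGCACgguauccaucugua
miR-92a-3p: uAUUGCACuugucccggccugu
The remaining members are miR-18b-5p, whose seed AAGGUGC is that of miR-18a-5p, and miR-106b-3p, the other arm of the miR-106b hairpin. The seed of miR-106b-3p was found in no other miRNA of the table among those compared by RefSeq sequence, which were not all of them.
miR-18b-5p: uAAGGUGCaucuagugcaguuag
miR-18a-5p: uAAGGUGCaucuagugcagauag
miR-106b-3p: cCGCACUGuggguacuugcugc

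These alignments also show how little separates some members from miR-17-92 relatives that are far more abundant. Counting positions from 1 at the 5′ end and giving the base of the miR-17-92 miRNA first, miR-106a-5p differs from miR-17-5p by C1A alone and miR-18b-5p differs from miR-18a-5p by A20U alone. miR-20b-5p differs from miR-20a-5p by U1C and U10C. miR-363-3p is less alike, with 12 differences from miR-92a-3p, and miR-25-3p has 4 differences from miR-92a-3p. Each of the 8 members had 1 exact match in the genome, whereas miR-92a-3p and miR-19b-3p each had 2, one of them in miR-106a-363. The sources used here do not give the treatment of reads that match more than one miRNA, so the counts of miR-106a-5p, miR-20b-5p and miR-18b-5p are uncertain by the share of relatives' reads that was read or counted as theirs.

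The 3 hairpins of miR-106b-25 lie within 515 bases on the minus strand of chromosome 7 (GRCh38), inside MCM7. The miR-106b hairpin at chr7:100093993-100094074 and the miR-25 hairpin at chr7:100093560-100093643 are intronic in all 9 annotated MCM7 transcripts that span them. The miR-93 hairpin, at chr7:100093768-100093847, overlaps an exon in 1 of 9. Both hairpins below are printed because each gives 2 measured arms, which the capitals mark.
MIR106B: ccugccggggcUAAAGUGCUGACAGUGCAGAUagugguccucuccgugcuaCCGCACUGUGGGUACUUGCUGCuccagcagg
MIR25: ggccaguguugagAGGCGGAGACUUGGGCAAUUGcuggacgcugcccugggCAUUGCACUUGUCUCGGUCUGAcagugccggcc
The 6 hairpins of miR-106a-363 span 901 bases of the X chromosome, chrX:134169378-134170278 on the minus strand, and are exonic in all 3 transcripts of the long noncoding RNA ENSG00000283638.

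Libraries held 3870104 to 8683456 counts, and 984 to 1057 miRNAs were detected in each. Member levels are given in CPM, counts per 1000000 scaled by edgeR's trimmed mean of M values (TMM), and the marker ranges that follow are per 1000000 total counts. The blood markers were high in every library, miR-142-3p at 18149 to 46839 and miR-223-3p at 2533 to 3489. Among markers of other tissues, the erythroid miR-451a and miR-144-3p did not exceed 7.15, the epithelial miR-141-3p 5.19 and the liver miR-122-5p 10.2. The epithelial miR-205-5p had at most 2 counts and the neuronal miR-124-3p at most 6. The neuronal miR-9-5p was at 0.185 to 6.29, with group means of 1.07 CPM in MV4-11 EV and 5.91 CPM in Molm-14 EV. The epithelial miR-200c-3p was at 101 to 269, the mesenchymal miR-143-3p at 93.6 to 734 and miR-145-5p at 3.44 to 49.4, all 3 with higher group means in MV4-11. The part of these markers in the results below was not tested. In bulk RNA, fewer cells with a miRNA and less of it per cell cannot be told apart.

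The 2 clusters differed in level by orders of magnitude. Together the 8 members took 4.20% ± 0.313 (SD, n = 3) of all counts in MV4-11 EV and 4.71% ± 0.122 in its knockout, and 4.81% ± 0.213 in Molm-14 EV and 4.42% ± 0.331 in its knockout. Nearly all of this was miR-106b-25, whose 4 members summed to 41645 ± 631 CPM in MV4-11 EV and 49982 ± 2369 CPM in Molm-14 EV. The 4 members of miR-106a-363 summed to 35.0 ± 9.42 CPM in MV4-11 EV and 75.0 ± 8.40 CPM in Molm-14 EV. The summed counts of miR-106b-25 were 1264 ± 405 times those of miR-106a-363 in MV4-11 EV and 673 ± 85.3 times in Molm-14 EV. In the knockouts this ratio was 1422 ± 70.4 in MV4-11 and 522 ± 42.6 in Molm-14, so the gap was narrower in Molm-14 in both genotypes. Ligation efficiency differs between miRNAs, so ratios of one miRNA to another are best read between libraries.

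**Figure D1:**
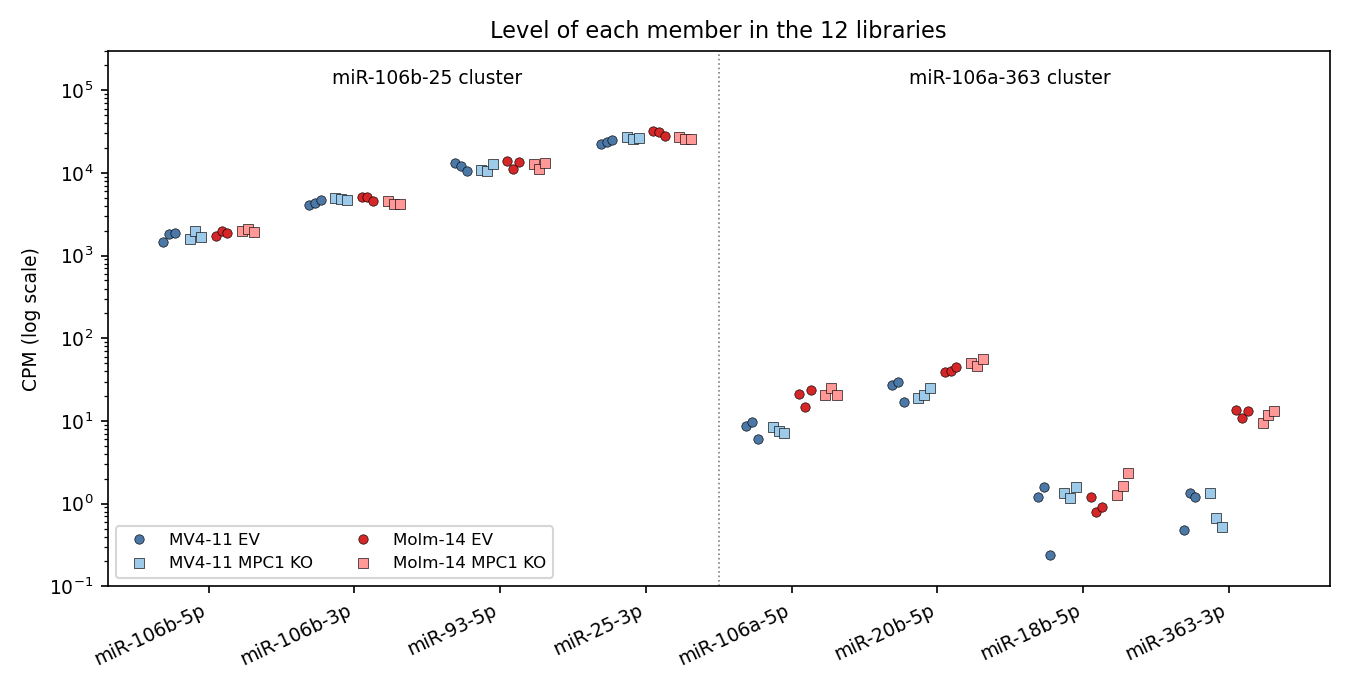
CPM of the 8 members on a log scale, 1 point per library, coloured by group. The miR-106b-25 members lie between 1465 and 31981 CPM in every library and the miR-106a-363 members between 0.239 and 55.6 CPM.

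miR-25-3p, which shares its seed with miR-92a, was the most abundant member and ranked 10 of 1204 miRNAs by mean CPM. Its libraries measured 22201, 23337 and 25059.7 CPM in MV4-11 EV and 26981, 25839.9 and 26782 CPM in MV4-11 MPC1 KO. In Molm-14 they measured 31981, 30909 and 28162 CPM in EV and 27472, 25600.0 and 25670.0 CPM in MPC1 KO. The knockout libraries were thus all above EV in MV4-11 and all below EV in Molm-14, and the 2 knockouts overlapped with each other between the 2 EV groups. In order of mean the groups ran MV4-11 EV, Molm-14 MPC1 KO, MV4-11 MPC1 KO and Molm-14 EV, and only the middle neighbours overlapped.

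miR-93-5p, a miR-17 seed miRNA and the second most abundant member at rank 17, overlapped in all groups. It measured 13170.5, 12286 and 10587 CPM in MV4-11 EV and 10823, 10671 and 12872 CPM in the knockout. Molm-14 EV libraries were at 13825, 11291 and 13452 CPM and Molm-14 MPC1 KO libraries at 12828, 11298 and 13293 CPM. The group means ran from 11455 ± 1229 to 12856 ± 1368 CPM.

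The miR-106b hairpin gave 2 abundant arms, of which the 3p arm ranked 32 and the 5p arm, the miR-17 seed miRNA, ranked 57. miR-106b-3p was at 4117, 4365 and 4654 CPM in MV4-11 EV and at 4999, 4772 and 4719 CPM in the knockout. It was at 5089.8, 5078 and 4566 CPM in Molm-14 EV and at 4581, 4228 and 4179 CPM in the knockout. As for miR-25-3p, its MV4-11 knockout libraries were all above EV, while in Molm-14 the lowest EV library lay just below the highest knockout library. miR-106b-5p ranged over 1465, 1805 and 1889.8 CPM in MV4-11 EV and 1571, 1972 and 1689 CPM in the knockout. In Molm-14 it was at 1728, 1998 and 1867 CPM in EV and 1998, 2114 and 1912 CPM in the knockout, and no neighbouring groups stood apart.

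**Figure D2:**
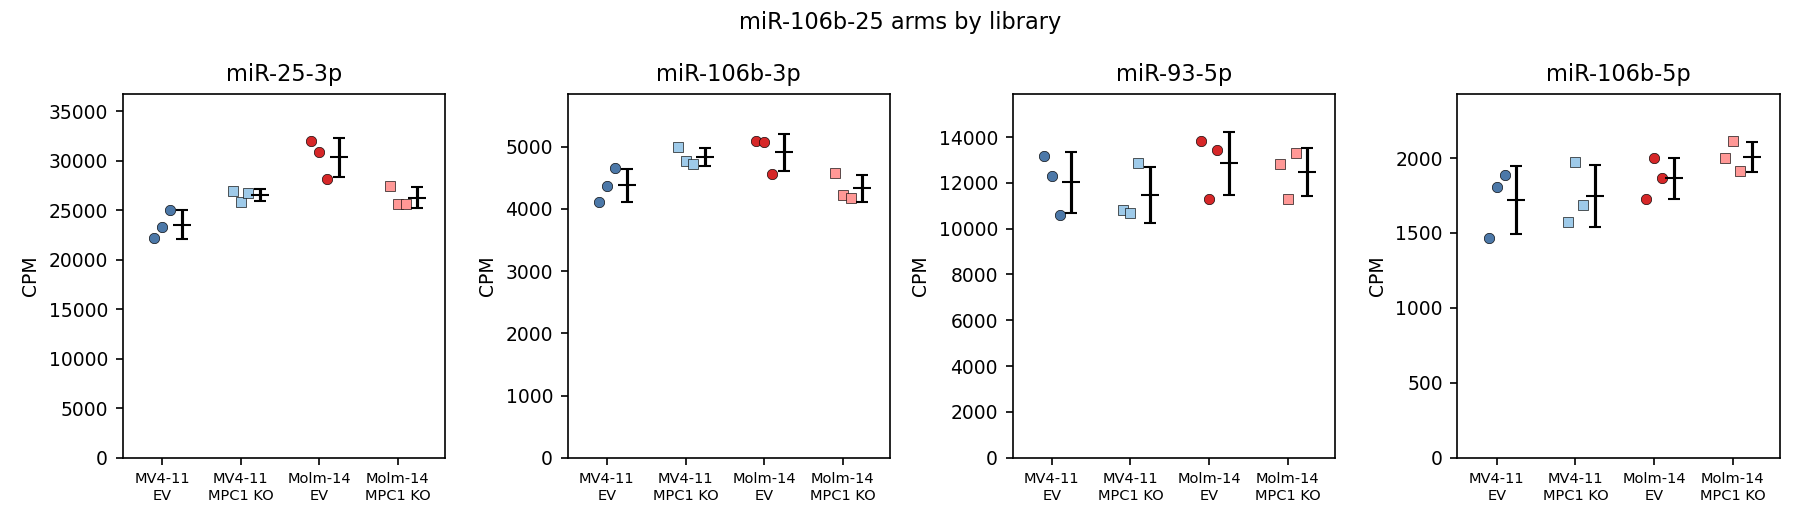
CPM of the 4 miR-106b-25 members in each library, with the mean and SD of each group (n = 3) beside the points and the axis starting at 0. miR-25-3p means are 23532 CPM in MV4-11 EV and 26534 in its knockout, and 30351 in Molm-14 EV and 26247 in its knockout.

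Of miR-106a-363, miR-20b-5p was the most abundant arm yet ranked only 241. miR-20b-5p, with the miR-17 seed, measured 27.4, 29.9 and 17 CPM in MV4-11 EV and 18.8, 20.7 and 24.9 CPM in the knockout. Its Molm-14 libraries were at 39.5, 39.8 and 45.4 CPM in EV and at 50.7, 46.8 and 55.6 CPM in the knockout. All 6 Molm-14 libraries were above all 6 MV4-11 libraries, and the Molm-14 knockout stood above its EV.

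miR-106a-5p, the other miR-17 seed arm of the cluster, ranked 308. It was at 8.76, 9.74 and 5.99 CPM in MV4-11 EV and 8.35, 7.53 and 7.24 CPM in the knockout. Molm-14 EV gave 21.0, 14.9 and 23.6 CPM and Molm-14 MPC1 KO gave 20.7, 25.3 and 20.9 CPM. The lines did not overlap, and EV and knockout overlapped within each line.

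miR-363-3p, the miR-92 seed arm at the 3′ end of the cluster, had 4, 6 and 5 counts in MV4-11 EV and 7, 4 and 3 in the knockout. It had 68, 41 and 59 counts in Molm-14 EV and 53, 64 and 56 in the knockout, which is 10.9 to 13.6 CPM in EV. It passed the filter on low counts through Molm-14, so a difference between the lines was needed for it to be tested at all. miR-18b-5p, the sister of miR-18a-5p, had 10, 7 and 1 counts in MV4-11 EV and 7, 7 and 9 in the knockout. It had 6, 3 and 4 counts in Molm-14 EV and 7, 9 and 10 in the knockout. With 1 to 10 counts per library it did not pass the filter, and 7 of the 8 members were tested.

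The comparison of the EV cells asked how the 2 lines differ before MPC1 is touched. Of the 7 tested members, 4 were higher in Molm-14 EV than in MV4-11 EV and 0 were lower, by edgeR's quasi-likelihood test with an adjusted p under 0.05. Of all 659 miRNAs tested, 61.9% passed, and 33.5% of the 659 passed as higher in Molm-14. The 4 were miR-25-3p, miR-20b-5p, miR-106a-5p and miR-363-3p, of which the last could enter the test only by being high in Molm-14, so its call is no support for a difference. The same 4 did not overlap between the lines and were higher in Molm-14 EV, as were 34.9% of the 659. For miR-363-3p the values are a description: its fitted log2 fold change was 3.76, and 3.74 in the fit with no filter, which also held miR-18b-5p at -0.12. Counted directly, 168 counts in Molm-14 EV against 15 in MV4-11 EV gave a ratio of 13.8 at equal depth, with an exact 95% interval of 8.14 to 25.2 that covers counting error only. The knockout cells gave 12.6 (7.28 to 23.4) from 173 against 14 counts.

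The log2 fold change was 1.27 for miR-106a-5p (SE 0.21, edgeR adjusted p = 1.22e-05) and 0.74 for miR-20b-5p (SE 0.17, edgeR adjusted p = 7.29e-04). Their near-identical relatives were higher in Molm-14 EV as well, miR-17-5p by 0.91 and miR-20a-5p by 1.05. miR-25-3p was higher by 0.37 (SE 0.09, edgeR adjusted p = 0.00148), which with upper-quartile scaling was 0.19 (edgeR adjusted p = 0.103). That scaling moved the median of all miRNAs by -0.18, and relative to that median miR-25-3p was higher by 0.31 under both scalings. miR-106b-3p, miR-106b-5p and miR-93-5p did not pass, with log2 fold changes of 0.17, 0.12 and 0.10, which upper-quartile scaling turned to -0.012, -0.059 and -0.078. Without Molm-14 EV replicate 3, miR-106b-3p passed with a log2 fold change of 0.26 (edgeR adjusted p = 0.0370). The 95% interval for miR-93-5p was -0.13 to 0.33.

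For miR-18b-5p, which was not tested, the ratio of Molm-14 EV to MV4-11 EV was 0.891 (0.401 to 1.92) at 13 against 18 counts, so no difference between the lines was detectable at this depth.

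**Figure D3:**
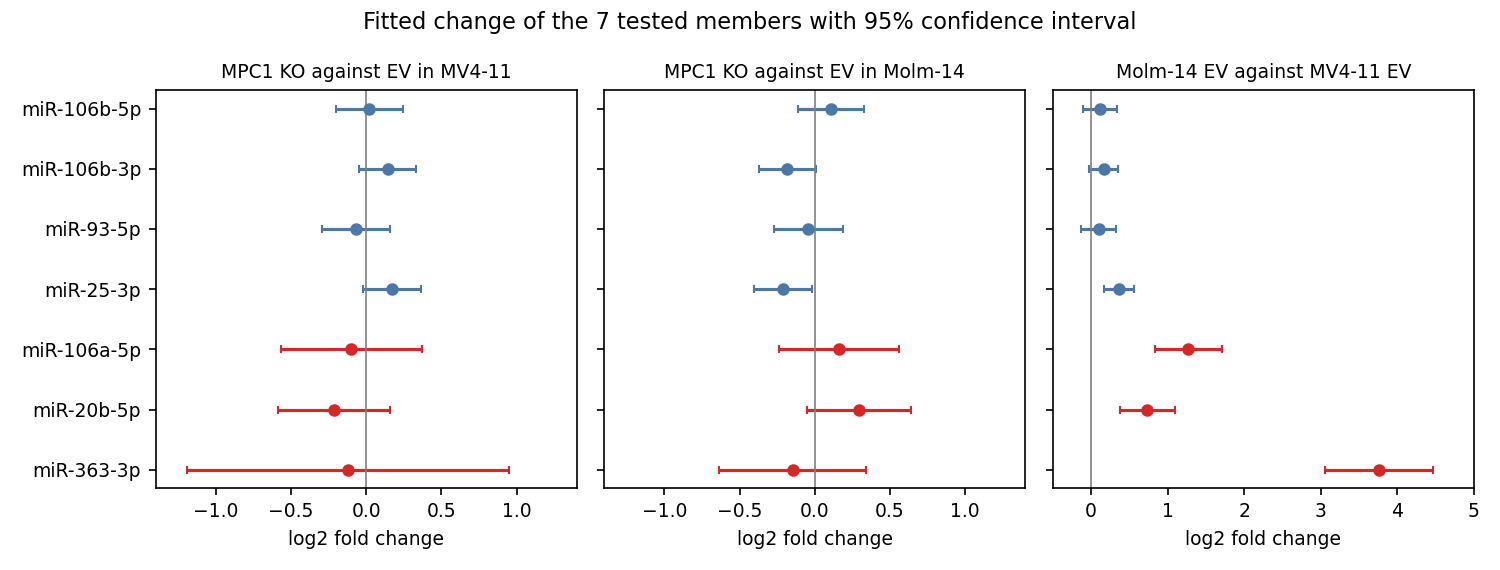
Fitted log2 fold change of the 7 tested members with its 95% confidence interval, for the 2 MPC1 KO comparisons and for the EV cells of the 2 lines, with miR-106b-25 in blue and miR-106a-363 in red. In the knockout panels the values lie between -0.21 and 0.29, and in the EV panel miR-363-3p, which entered the test through Molm-14, stands at 3.76.

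The knockout comparisons asked whether MPC1 loss moves the clusters. In MV4-11, 0 of 7 members passed in edgeR, where 3.03% of all miRNAs tested passed, and 0 of 7 had an unadjusted p under 0.05, against 14% of all. In Molm-14, 0 of 7 passed where 6.83% of all miRNAs did, and 1 of 7, miR-25-3p, had an unadjusted p under 0.05, against 19.4% of all. DESeq2 and limma-voom also called 0 members in either line. miR-25-3p had a log2 fold change of 0.17 in MV4-11 (95% interval -0.02 to 0.37, edgeR adjusted p = 0.438) and of -0.21 in Molm-14 (95% interval -0.40 to -0.02, edgeR adjusted p = 0.202).

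miR-106b-3p moved like miR-25-3p in sign, at 0.14 in MV4-11 (edgeR adjusted p = 0.556) and -0.18 in Molm-14 (edgeR adjusted p = 0.274). miR-93-5p was at -0.07 and -0.04, and miR-106b-5p at 0.02 and 0.11, with edgeR adjusted p from 0.650 to 0.969. For miR-106a-363 the intervals were wider: miR-20b-5p was at -0.21 in MV4-11 (95% interval -0.58 to 0.15) and 0.29 in Molm-14 (-0.05 to 0.64). miR-106a-5p was at -0.10 and 0.16, and miR-363-3p at -0.12 and -0.15, the former with an interval of -1.19 to 0.95 that its 3 to 7 counts per library allow.

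Groups that did not overlap were also counted. In MV4-11, miR-25-3p and miR-106b-3p were higher in every knockout library than in every EV library, as were 10.3% of all miRNAs tested. In Molm-14, miR-20b-5p was higher throughout, against 12.3% of all, and miR-25-3p lower throughout, against 14.9%. Among members not tested, miR-18b-5p was at 1.26 to 2.34 CPM in the Molm-14 knockout and 0.801 to 1.20 CPM in EV, apart by 1 count at the nearest (7 against 6).

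The opposite signs in the 2 lines were put to the test of the difference itself, the knockout effect in Molm-14 minus that in MV4-11. In edgeR, 0 of 7 members passed, where 6.68% of all miRNAs did, and 3 of 7 had an unadjusted p under 0.05, against 18.5% of all. Of these 3, miR-25-3p had a difference of -0.38 (SE 0.13, edgeR adjusted p = 0.0987), miR-106b-3p one of -0.32 (SE 0.13, edgeR adjusted p = 0.167) and miR-20b-5p one of 0.51 (SE 0.24, edgeR adjusted p = 0.266). For miR-25-3p the call depended on the test: DESeq2 gave an adjusted p of 0.0445 and limma-voom one of 0.0457. Among 20 alternatives 4 passed. One of them left out Molm-14 EV replicate 3 (edgeR adjusted p = 0.0461), and over all 20 the adjusted p ran from 0.0445 to 0.465. miR-20b-5p passed only without MV4-11 EV replicate 3 (edgeR adjusted p = 0.0410).

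Supply of the miR-17 seed family (miR-17-5p, miR-20a-5p, miR-93-5p, miR-106b-5p, miR-106a-5p and miR-20b-5p) was then split by cluster. miR-17-92 supplied most of it in both lines and miR-106b-25 the rest, while miR-106a-363 supplied less than 0.1% in every library. From miR-106b-25 came 26.5%, 26.8% and 28.2% of family counts in MV4-11 EV, and 16.5%, 17.5% and 16.2% in Molm-14 EV. The means were 27.2% ± 0.941 and 16.7% ± 0.688, and the lines did not overlap. Neither of the 2 miR-106b-25 arms passed the test between the EV cells, while the libraries of the 2 lines did not overlap in the family total, at 50687 ± 5795 CPM in MV4-11 EV and 88232 ± 10735 CPM in Molm-14 EV.

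In MV4-11 MPC1 KO the miR-106b-25 share was 29.7%, 30.6% and 27.9%, and its lowest library fell within the EV range. In Molm-14 MPC1 KO it was 15.7%, 14.5% and 15.6%, below all 3 EV libraries. The means differed from EV by 2.21 percentage points in MV4-11 and by -1.46 in Molm-14. The share from miR-106a-363 was 0.0643% ± 0.0118 in MV4-11 EV and 0.0650% ± 0.00338 in its knockout, and 0.0698% ± 0.00502 in Molm-14 EV and 0.0774% ± 0.00165 in its knockout. In Molm-14 the lowest knockout library, at 0.0755%, lay above the highest EV library, at 0.0732%. These shares sum several members and were given no p.

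**Figure D4:**
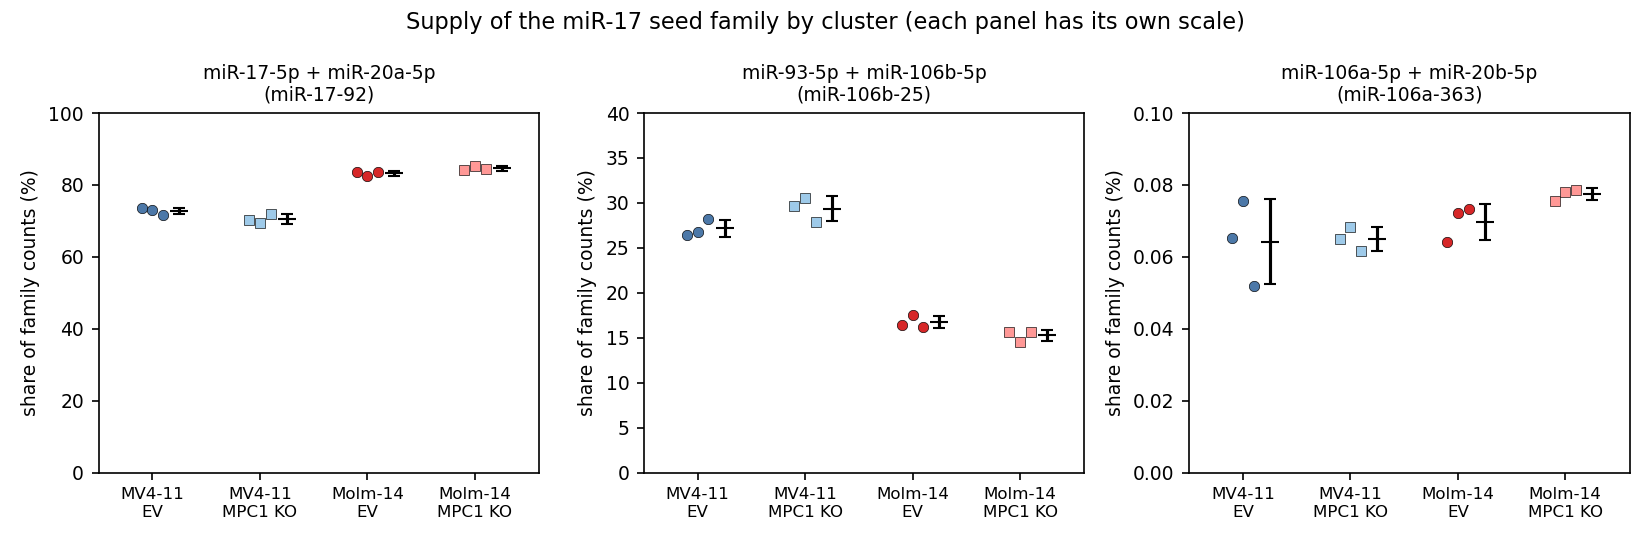
Share of miR-17 seed family counts from each of the 3 clusters in each library, in percent, with the mean and SD of each group (n = 3), and a scale of its own for each panel, from 0. The miR-106b-25 share is 27.2% in MV4-11 EV and 16.7% in Molm-14 EV, and the miR-106a-363 share stays below 0.1%.

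A ratio of 2 miRNAs within a library does not depend on scaling. miR-93-5p, which differs from miR-17-5p by U10G, A11U, C12U and A13C, gave 809 ± 12.6 counts per 1000 of miR-17-5p in MV4-11 EV and 901 ± 11.3 in MV4-11 MPC1 KO. In Molm-14 it gave 460 ± 1.57 in EV and 409 ± 27.6 in the knockout. The ratio varied less among EV replicates than either CPM did. In the Molm-14 knockout it varied more, relative to its mean, than miR-17-5p did at 30517 ± 1118 CPM. In both lines the knockout libraries fell outside the EV range, above it in MV4-11 (893 to 914 against 799 to 823) and below it in Molm-14 (378 to 430 against 459 to 462). How often ratios of other miRNAs stand apart in this way was not counted. The ratios of miR-106b-5p to miR-17-5p and of miR-25-3p to miR-92a-3p overlapped between EV and knockout in both lines. For miR-106b-5p, MV4-11 gave 118 ± 29.0 per 1000 of miR-17-5p in EV and 139 ± 26.9 in the knockout. In Molm-14 these were 67.6 ± 12.5 and 65.9 ± 5.34. All 3 ratios were added after the data were at hand and were given no p. miR-17-5p itself had log2 fold changes of -0.22 in MV4-11 and 0.13 in Molm-14 with the knockout (edgeR adjusted p = 0.382 and 0.593).

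In the miR-92 seed family (miR-25-3p, miR-92a-3p, miR-92b-3p and miR-363-3p), miR-106b-25 supplied most of the counts. miR-25-3p of miR-106b-25 supplied 83.2% ± 2.55 in MV4-11 EV and 84.4% ± 0.699 in its knockout, and 78.5% ± 3.01 in Molm-14 EV and 76.5% ± 1.44 in its knockout. EV and knockout overlapped in both lines, and so did the EV libraries of the 2 lines. miR-92a-3p, which can come from miR-17-92 or miR-106a-363, supplied 12.1% ± 2.56 in MV4-11 EV and 14.8% ± 2.57 in Molm-14 EV. miR-363-3p, the only arm of this family unique to miR-106a-363, supplied 0.00358% ± 0.00163 in MV4-11 EV and 0.0326% ± 0.00352 in Molm-14 EV. With miR-32-5p added, a choice made after seeing the data, the miR-25-3p share was 78.4% ± 2.70 in MV4-11 EV and 74.4% ± 1.94 in Molm-14 EV. In the miR-18 family, miR-18b-5p made up 0.111% ± 0.0772 in MV4-11 EV and 0.0595% ± 0.0123 in Molm-14 EV, the rest being miR-18a-5p.

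The miR-106a-363 arms were also set against their closest miR-17-92 relatives. miR-106a-5p gave 0.545 ± 0.0870 counts per 1000 of miR-17-5p in MV4-11 EV and 0.613 ± 0.0982 in its knockout, and 0.705 ± 0.0973 in Molm-14 EV and 0.732 ± 0.101 in its knockout. miR-20b-5p gave 1.11 ± 0.196, 1.13 ± 0.0799, 0.923 ± 0.119 and 1.03 ± 0.0749 counts per 1000 of miR-20a-5p in the same order. Between the EV cells these 2 ratios overlapped, while miR-17-5p and miR-20a-5p were 1.88 and 2.06 times as high in Molm-14. miR-18b-5p gave 1.11 ± 0.773 counts per 1000 of miR-18a-5p in MV4-11 EV and 0.596 ± 0.124 in Molm-14 EV. miR-363-3p, which differs from miR-92a-3p at 12 positions, gave 0.319 ± 0.177 counts per 1000 of miR-92a-3p in MV4-11 EV and 2.22 ± 0.199 in Molm-14 EV, and the lines did not overlap. What part of the first 3 arms' counts came from their relatives was not tested.

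**Figure D5:**
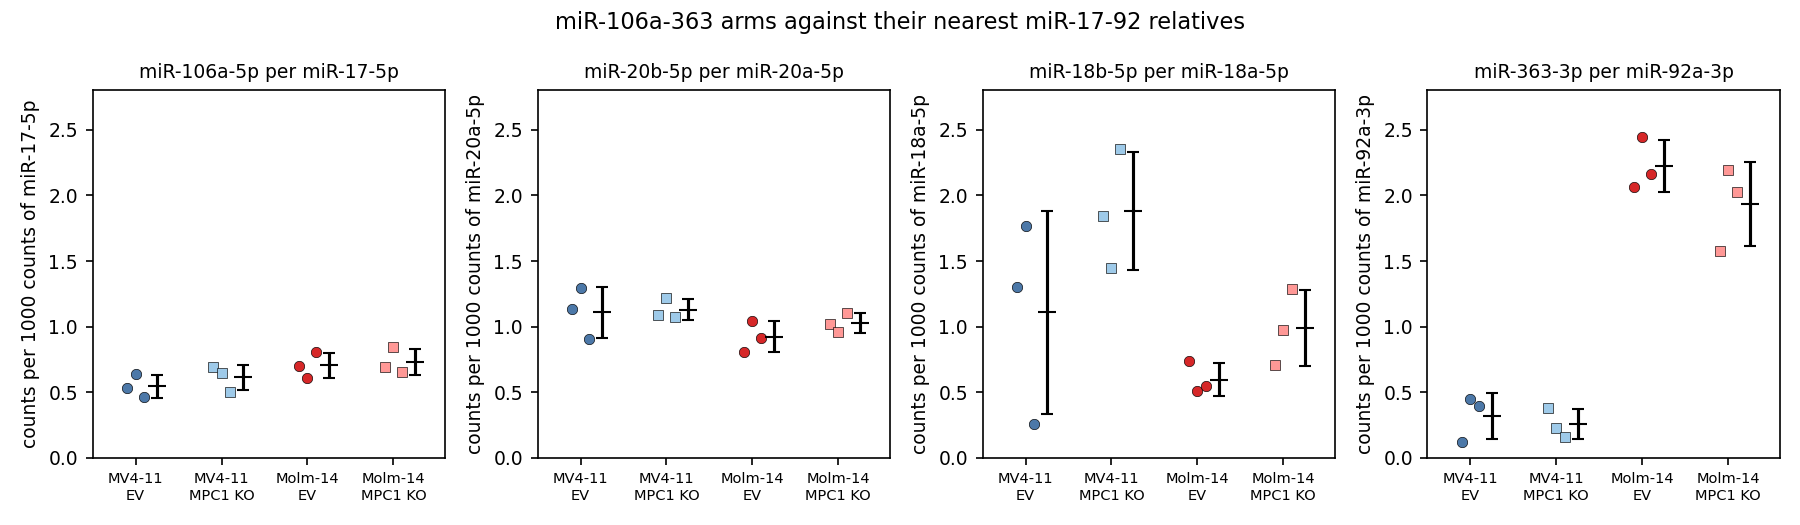
Counts of each miR-106a-363 member per 1000 counts of its closest miR-17-92 relative, by library, with the mean and SD of each group (n = 3). miR-106a-5p and miR-20b-5p lie between 0.466 and 1.29 in all libraries, whereas miR-363-3p is at 0.117 to 0.445 in MV4-11 EV and 2.06 to 2.44 in Molm-14 EV.

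The other arms of the hairpins were also compared between the clusters. All 5 other arms of miR-106a-363 in the table (miR-106a-3p, miR-20b-3p, miR-18b-3p, miR-363-5p and miR-92a-2-5p) had 0 counts in all 12 libraries, or 0 of 62235834 counts, which allows up to 0.0482 CPM. They were 5 of the 18 miRNAs with no count anywhere. Over the 12 libraries the cluster's member arms were low too, at 877 (miR-106a-5p), 2113 (miR-20b-5p), 80 (miR-18b-5p) and 370 counts (miR-363-3p). How far the 0 counts go beyond this low level was not tested. In miR-106b-25, by contrast, miR-93-3p measured 151 to 168 CPM in MV4-11 EV and 203 to 211 CPM in Molm-14 EV, and miR-25-5p 249 to 295 and 504 to 591 CPM. Both were higher in Molm-14 EV, miR-25-5p by 1.01 (SE 0.11, edgeR adjusted p = 9.82e-09) and miR-93-3p by 0.38 (SE 0.10, edgeR adjusted p = 0.00220). With upper-quartile scaling miR-93-3p was at 0.20 and did not pass (edgeR adjusted p = 0.109). Neither arm passed with the knockout in either line.

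Arm use was compared as ratios within a hairpin. miR-25 gave 87.6 ± 12.6 counts of 3p per count of 5p in MV4-11 EV and 55.9 ± 4.80 in Molm-14 EV, a log2 difference of -0.64. The ratio of miR-106b 5p to 3p was 0.381 ± 0.0365 in Molm-14 EV and 0.465 ± 0.0324 in its knockout, a log2 difference of 0.29. miR-93 gave 62.3 ± 5.85 counts of 5p per count of 3p in Molm-14 EV and 68.2 ± 1.12 in its knockout, a log2 difference of 0.13. In these 3 cases the groups did not overlap and the two-sided exact permutation test gave p = 0.1, the smallest that 3 against 3 allows, and 0.3 after adjustment over 9 such tests. In MV4-11 the miR-106b ratio was 0.392 ± 0.0314 in EV and 0.362 ± 0.0497 in the knockout, a log2 difference of -0.12 (exact permutation p = 0.6). The miR-93 ratio was 76.4 ± 11.7 in MV4-11 EV, and it overlapped with that in Molm-14 EV (exact permutation p = 0.3).

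For the 12 miR-17-92 arms, 11 were higher in Molm-14 EV than in MV4-11 EV and 0 lower, with a median log2 fold change of 0.98 beside 0.06 for all miRNAs, of which the 33.5% above were higher. One of the 11, miR-19a-3p, did not pass with upper-quartile scaling (0.29, edgeR adjusted p = 0.0784). With the knockout 0 of 12 passed in edgeR in either line, against 3.03% and 6.83% of all, and the median was -0.21 in MV4-11 and 0.14 in Molm-14. An unadjusted p under 0.05 was found for 2 of 12 in MV4-11 and 4 of 12 in Molm-14, against 14% and 19.4% of all. Some alternatives did call arms. In MV4-11 miR-18a-5p passed in 3 of 9 and without MV4-11 MPC1 KO replicate 2 (edgeR adjusted p = 0.0276). In Molm-14 miR-19a-3p passed in 2 of 9 and without Molm-14 EV replicate 3 (edgeR adjusted p = 0.0474), and miR-18a-3p in 1 of 9.

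By profile, taken as the root mean square difference of centred log2(CPM + 0.5) over the 12 libraries and described without a test, the 3 of 312 candidate miRNAs outside the members, their other arms and their relatives nearest to miR-106b-25 were miR-29a-3p (0.0769), let-7g-5p (0.0795) and miR-30c-1-3p (0.0827). The nearest to miR-106a-363 were miR-7974 (0.167), miR-16-1-3p (0.178) and miR-548u (0.195). The miR-17-92 arms miR-20a-5p (0.138), miR-19b-1-5p (0.153) and miR-17-5p (0.162) were nearer still to miR-106a-363. The members miR-106a-5p and miR-20b-5p are near-identical to miR-17-5p and miR-20a-5p. What part of their counts, and so of this likeness, came from these relatives was not tested. The other miR-17-92 arms ran from 0.194 (miR-20a-3p) to 0.581 (miR-19b-3p). A cluster's profile here is that of its summed member CPM. For miR-106b-25, miR-25-3p made up 56.5% of member counts in MV4-11 EV and 60.7% in Molm-14 EV, and lay at 0.0546 from the sum. The members miR-106b-3p (0.0868), miR-93-5p (0.132) and miR-106b-5p (0.165) lay farther from it than the 3 nearest miRNAs. For miR-106a-363, miR-20b-5p made up 70.7% of member counts in MV4-11 EV and 55.7% in Molm-14 EV. The members miR-363-3p (1.02) and miR-18b-5p (0.647) lay farther from this sum than any miR-17-92 arm. All of these points share the depth and scaling of the same libraries.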

How the data were processed

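Small RNA libraries (NEBNext) were made from total RNA of 12 samples in 4 groups of 3. The authors deposited raw counts of reads per mature miRNA in 1 table, not normalized. The submitters' processing notes name STAR 2.5.2, featureCounts 1.5.1 and GRCh38, without their order. Treatment of reads matching several miRNAs is not given in the sources used here. No column of per-sample values was left unmapped (0).

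Counts were analysed in R 4.3.3 with edgeR 4.0.16: TMM factors, filterByExpr (minimum count 10, leaving 659 of 1204 miRNAs with over 99.9% of counts), and the quasi-likelihood test on all 12 libraries with Benjamini-Hochberg adjustment over all 659. SEs and 95% intervals come from that fit. It was tested on simulated data. Arm ratios had 0.5 counts added and an exact permutation test (scipy 1.17.1). Alternatives were other scalings and filters, DESeq2 1.42.0, limma-voom (limma 3.58.1), each line alone, a replicate block and leaving out each library. Libraries of a group differed by more than counting noise (chi-square per degree of freedom of at least 13.7), so none was a repeat count of another library. This does not show whether they came from separate RNA or cultures. The exact intervals on ratios of counts and the floors cover counting error only.

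The named miRNAs were the 8 members, their other arms, the miR-17-92 arms and miR-92b-3p, and the 3 nearest profiles per cluster among other miRNAs averaging at least 10 CPM. miR-19b-2-5p and miR-367-3p were not analysed here. The ratios of miR-93-5p and miR-106b-5p to miR-17-5p and of miR-25-3p to miR-92a-3p were added to the planned comparisons after the data were at hand. The miR-93 and miR-25 arm ratios and miR-32-5p were added in the same way. Members and lists were chosen with earlier results of these data known.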

Additional observations from a re-analysis of the deposited data

Results flagged for a closer look

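miR-25-3p differed in its response to MPC1 loss between the lines by -0.38 on the log2 scale (Molm-14 effect minus MV4-11 effect). It was singled out because all 3 knockout libraries were above EV in MV4-11 and all 3 below EV in Molm-14, and the test of the difference did not pass in edgeR (adjusted p = 0.0987).

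Outside the members, 15 other arms and relatives were tested. The knockout effect differed between the lines past the threshold for 3 of them in edgeR, where 6.68% of all miRNAs passed. miR-92b-3p, which has the seed of miR-25-3p, differed by -0.57 (adjusted p = 0.00893), with all MV4-11 knockout libraries above EV and all Molm-14 ones below. Of all miRNAs tested, 10.3% were higher throughout in the MV4-11 knockout and 14.9% lower throughout in the Molm-14 knockout. miR-92b-3p passed without each of the 12 libraries in turn (adjusted p from 0.00163 to 0.0420) and under 7 of 8 other alternatives, the exception being upper-quartile scaling at -0.39 (adjusted p = 0.101). miR-18a-5p differed by 0.43 (adjusted p = 0.0378), from log2 fold changes of -0.31 in MV4-11 and 0.12 in Molm-14. It passed in 2 of the 12 fits that left out a library (adjusted p from 0.0214 to 0.132) and under 4 of 8 other alternatives (0.00898 to 0.145). miR-19a-3p differed by 0.60 (adjusted p = 0.0427) and passed in 3 of those 12 (adjusted p from 0.0113 to 0.123) and under 7 of 8 others, the exception being limma-voom (adjusted p = 0.0578).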

How the results depend on the processing

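The number of members past the threshold with MPC1 KO stayed at 0 in both lines under every alternative run. For the difference between the lines it was 0, and 1 with an adjusted p under 0.1, with a mean of at least 100 counts, with DESeq2, with limma-voom, and without MV4-11 EV replicate 3 or Molm-14 EV replicate 3 (0 to 1 over leave-one-out). Between the EV cells it was 4 (4 to 5 over leave-one-out), 3 with upper-quartile scaling, where miR-25-3p did not pass, and 2 with a mean of at least 100 counts, which removes miR-106a-5p and miR-363-3p. All but the last of these counts include miR-363-3p, which entered the test only through Molm-14, so its call is no support for a difference.

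Some small log2 fold changes changed sign, none of them past the threshold. With upper-quartile scaling these were miR-106b-5p at -0.087 in MV4-11 and miR-93-5p at 0.028 in Molm-14 with the knockout, miR-363-3p at 0.15 for the difference between the lines, and miR-106b-5p at -0.059, miR-106b-3p at -0.012 and miR-93-5p at -0.078 between EV cells. With total counts only, miR-93-5p was at 0.0060 with the knockout in MV4-11 and -0.018 for the difference, and in a fit of MV4-11 alone miR-106b-5p was at -0.011. Leaving out 1 library in turn, the knockout in MV4-11 ranged from -0.091 to 0.094 for miR-106b-5p, -0.18 to 0.00077 for miR-93-5p, -0.26 to 0.0035 for miR-106a-5p and -0.61 to 0.17 for miR-363-3p. It ranged from -0.0995 to 0.039 for miR-93-5p in Molm-14, from -0.1003 to 0.14 for miR-93-5p and -0.31 to 0.48 for miR-363-3p for the difference, and from -0.036 to 0.18 for miR-106b-5p between EV cells. Upper-quartile scaling also moved the calls over all miRNAs from 13 higher and 7 lower to 10 and 15 in MV4-11, from 18 and 27 to 30 and 23 in Molm-14, from 16 and 28 to 31 and 13 for the difference, and from 221 and 187 to 188 and 220 between EV cells. The causes were not tested.

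Without miR-106a-5p, the miR-106a-363 share of the miR-17 seed family was 0.0483% in MV4-11 EV and 0.0477% in its knockout, and 0.0475% in Molm-14 EV and 0.0538% in its knockout. The log2 ratio of miR-106a-363 to miR-106b-25 was then -10.88 in the MV4-11 knockout, -9.83 in Molm-14 EV and -9.46 in its knockout, and as a mean of members on the log2 scale it was -10.60 in MV4-11 MPC1 KO. By construction these leave out counts or weight members equally.

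No pairing of libraries by replicate number was seen, which does not exclude one. Same-numbered libraries correlated from -0.13 to 0.12 and different-numbered ones from -0.14 to 0.20, and not every library correlated best with its own number. With the replicate block, 0 members passed with the knockout in MV4-11, in Molm-14 and for the difference between the lines. Calls over all miRNAs went from 20 to 23, 45 to 52 and 44 to 34 in these comparisons. The blocks lie within a line, so this fit does not estimate the difference between the EV group means and is no check of it. At 1 to 10 counts per library, depth limits miR-18b-5p and, in MV4-11, miR-363-3p.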
